A study of Mus musculus with 8 samples.

Results

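The Hox genes encode homeodomain transcription factors that set position along the body axis. All mm10 RefSeq protein-coding genes whose symbol is Hoxa, Hoxb, Hoxc or Hoxd followed by a number were taken, which gave 39 of 21000 protein-coding genes, with 11 in Hoxa, 10 in Hoxb, 9 in Hoxc and 9 in Hoxd. For each gene, the peaks of 4 lists were sought at the promoter, defined as the 1 kb before a transcription start site (TSS) and the 100 bp after it. A peak was counted when it overlapped this window by at least 1 bp. The libraries were made from total epidermis of the back skin of wild-type mice at postnatal day 0.5, with no other genotype or condition among them, and the epidermis had been parted from the dermis with dispase. MOF, the acetyltransferase of lysine 16 of histone H4, was mapped by ChIPseq. Rfx2, a transcription factor of ciliary genes, and the histone marks were mapped by Cut&Run. Of the 8 samples, which covered 6 antibodies, peak lists of 1 library each were used for MOF, Rfx2, H3K4me3 and H3K27Ac. There was therefore no replicate error and no test, and each value describes these libraries.

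Vertebrate Hox genes lie in 4 clusters, and genes with the same number in different clusters are paralogues. Within a cluster the genes are transcribed in one direction, and their order on the chromosome follows the order of the body regions that they pattern, from low numbers (anterior) to high numbers (posterior). The trithorax group, which includes H3K4 methyltransferases, keeps Hox genes active, and the Polycomb group, which places H3K27me3, keeps them silent. Skin retains a positional Hox code after birth, best described in dermal fibroblasts. H3K4me3 marks promoters, also silent ones that carry Polycomb marks, while H3K27Ac marks active promoters and enhancers. H3K27me3 was not among the antibodies. Total epidermis holds several cell types, and a mark in few cells cannot be told apart from a weak mark in all of them.

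The upstream bases of 4 start sites are shown because they stand for some of the states found. Hoxb4 had MOF and both marks at its promoter, Hoxa5 had MOF and H3K4me3, Hoxd12 had MOF alone, and Hoxa13 had no peak in the promoter window. No gene with H3K4me3 alone, or with both marks but no MOF, is shown. Each sequence holds the 250 bases before the start site in the RefSeq table of GRCm38.p6 (which matched 22 of the 39 genes), written 5′ to 3′, with CG dinucleotides in capitals.
Hoxb4 promoter, chr11:96318017-96318266, plus strand: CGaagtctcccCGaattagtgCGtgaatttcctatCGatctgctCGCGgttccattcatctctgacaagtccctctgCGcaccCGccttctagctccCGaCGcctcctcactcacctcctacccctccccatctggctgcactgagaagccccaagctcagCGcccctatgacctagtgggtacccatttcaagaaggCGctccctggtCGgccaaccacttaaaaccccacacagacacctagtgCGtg
Hoxa5 promoter, chr6:52204588-52204837, minus strand: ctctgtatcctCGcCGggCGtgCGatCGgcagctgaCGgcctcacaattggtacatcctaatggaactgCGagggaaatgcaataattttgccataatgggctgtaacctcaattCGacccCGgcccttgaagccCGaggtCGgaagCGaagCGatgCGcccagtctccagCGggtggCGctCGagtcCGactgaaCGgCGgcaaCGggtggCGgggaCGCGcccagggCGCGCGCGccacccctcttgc
Hoxd12 promoter, chr2:74674763-74675012, plus strand: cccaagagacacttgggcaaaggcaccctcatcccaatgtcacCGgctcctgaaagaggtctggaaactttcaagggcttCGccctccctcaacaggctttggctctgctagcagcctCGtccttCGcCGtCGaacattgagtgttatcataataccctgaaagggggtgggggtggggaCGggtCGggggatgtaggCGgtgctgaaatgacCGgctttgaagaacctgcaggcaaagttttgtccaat
Hoxa13 promoter, chr6:52260881-52261130, minus strand: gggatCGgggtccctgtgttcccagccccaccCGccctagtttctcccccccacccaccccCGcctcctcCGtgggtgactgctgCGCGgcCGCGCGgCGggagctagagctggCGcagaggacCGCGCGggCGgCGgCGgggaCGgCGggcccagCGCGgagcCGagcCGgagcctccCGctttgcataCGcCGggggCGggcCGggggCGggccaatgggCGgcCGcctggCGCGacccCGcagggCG
The numbers of CG dinucleotides in these stretches were 14 for Hoxb4, 28 for Hoxa5, 10 for Hoxd12 and 35 for Hoxa13. Hoxa13, without a peak in the promoter window, held the most, but an H3K4me3 peak began 299 bp downstream of its start. The MOF peak of Hoxd12 ended 790 bp upstream of the start site and so lay outside the bases shown.

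H3K4me3 was the most frequent of the 4 lists at Hox promoters. It was present at 20 of 39 genes (51.3%, 95% exact confidence interval 34.8 to 67.6%), against 60.6% of all protein-coding genes. MOF was present at 8 genes (20.5%, 9.30 to 36.5%), against 26.6%. Both intervals held the value for all genes. The MOF list held 17546 peaks, more than the study states that it called, and the 50% with the highest scores left MOF at 6 Hox genes (15.4%) and 16.4% of all genes. H3K27Ac was present at 8 genes (20.5%, 9.30 to 36.5%), against 50% of all genes, which lay above the interval. No Hox gene had an Rfx2 peak, where 1.41% of all genes had one, and a count of 0 of 39 allows a share of up to 7.69%. Among the libraries that the study lists for the 4 antibodies used here, Rfx2 was the least deeply sequenced. The nearest Rfx2 peak lay 0.464 Mb from Hoxb1 and at least 13.72 Mb from the genes of the other clusters. These intervals cover counting error over genes only and treat neighbouring genes as independent.

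Genes fell into 6 classes by these peaks. Hoxb4 alone carried MOF, H3K4me3 and H3K27Ac. MOF with H3K4me3 was found at 4 genes (Hoxa5, Hoxb9, Hoxc10 and Hoxd11) and MOF with neither mark at 3 (Hoxb2, Hoxc13 and Hoxd12). Both marks without MOF were found at 7 genes, among them Hoxa4, Hoxc4, Hoxc8 and Hoxd3. H3K4me3 alone was found at 8 genes (Hoxa2, Hoxb5, Hoxb6, Hoxb7, Hoxc5, Hoxc6, Hoxd1 and Hoxd8). The remaining 16 genes had no peak of any list. No gene carried H3K27Ac without H3K4me3.

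Among the 20 genes with H3K4me3, 8 had H3K27Ac (40%, 19.1 to 63.9%), against 81.0% of all genes with H3K4me3. MOF was present at 5 of these 20 (25%, 8.66 to 49.1%), against 42.4%. The first of these intervals lay below the value for all genes and the second held it.

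The promoter window decided part of these counts, because several peaks began just past a start site. H3K4me3 began 170 bp downstream of the start of Hoxb2, 231 bp downstream of Hoxc9, 299 bp downstream of Hoxa13 and 313 bp downstream of Hoxc13. When the window was extended to 1 kb both before and after the TSS, H3K4me3 was present at 27 Hox genes (69.2%, 52.4 to 83.0%, against 62.7% of all genes), MOF at 9 (23.1%, 11.1 to 39.3%, against 28.6%), H3K27Ac at 14 (35.9%, 21.2 to 52.8%, against 51.8%) and Rfx2 at 0 (against 1.47%). The interval for H3K27Ac then held the value for all genes. Among the 27 genes with H3K4me3 in the wider window, 14 had H3K27Ac (51.9%, 31.9 to 71.3%, against 81.4%) and 8 had MOF (29.6%, 13.8 to 50.2%, against 44.0%). The wider window placed MOF and both marks at Hoxa4, Hoxb2, Hoxb4 and Hoxc13, and it left Hoxa9, Hoxa10, Hoxa11, Hoxb3, Hoxb8, Hoxb13, Hoxc11, Hoxc12, Hoxd4, Hoxd10 and Hoxd13 without a peak.

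**Figure D1:**
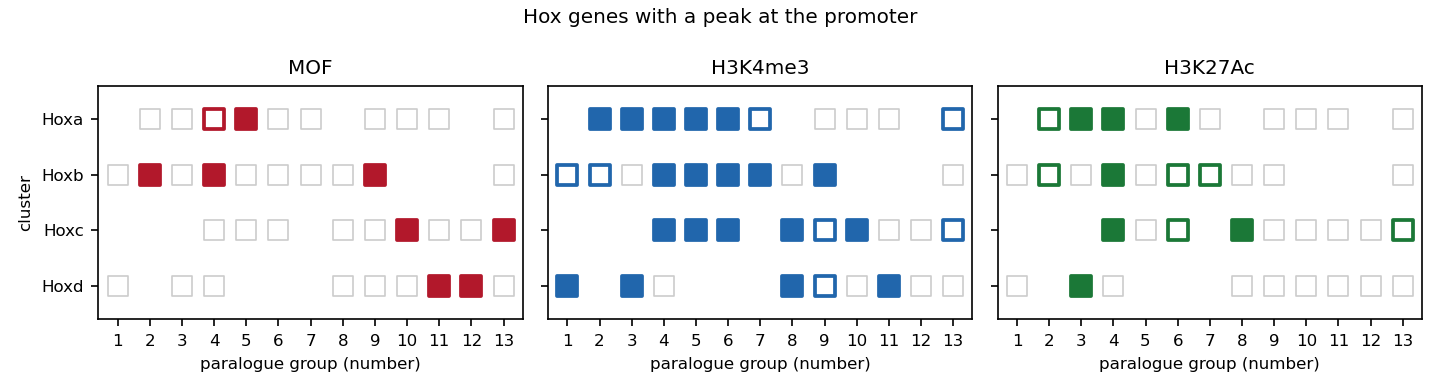
Hox genes by cluster (vertical) and paralogue group (horizontal), 1 panel per list. Filled squares have a peak in the promoter window, coloured open squares have one only within 1 kb on either side of a TSS, grey squares have neither, and a gap means that the cluster lacks that gene or that it is not drawn. H3K4me3 fills most squares from groups 4 to 8 and few from groups 9 to 13, and 5 of the 8 MOF squares are in groups 9 to 13.

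Along the axis, the marks were most frequent at anterior and central genes. The shares of all genes beside them were 60.6% for H3K4me3, 50% for H3K27Ac and 26.6% for MOF in the promoter window, and 62.7%, 51.8% and 28.6% with 1 kb on either side. In the promoter window, H3K4me3 was present at 5 of 8 anterior genes (groups 1 to 3; 62.5%, 24.5 to 91.5%), at 12 of 15 central genes (groups 4 to 8; 80%, 51.9 to 95.7%) and at 3 of 16 posterior genes (groups 9 to 13; 18.8%, 4.05 to 45.6%). The central and posterior intervals did not overlap. With 1 kb on either side the counts were 7, 13 and 7, and the central (59.5 to 98.3%) and posterior (19.8 to 70.1%) intervals did overlap. H3K27Ac was present at 3 anterior, 5 central and 0 posterior genes, and at 5, 8 and 1 in the wider window, where Hoxc13 was the posterior gene. A count of 0 of 16 allows a share of up to 18.8%. MOF was present at 1 anterior, 2 central and 5 posterior genes. The posterior share of MOF was 31.2% (11.02 to 58.7%) and the central share 13.3% (1.66 to 40.5%), so the intervals overlapped, and both held the value for all genes.

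The 3 posterior genes with H3K4me3 (Hoxb9, Hoxc10 and Hoxd11) all had MOF. Of the 12 central genes with H3K4me3, Hoxa5 and Hoxb4 had MOF, and of the 5 anterior genes with H3K4me3 none had it, a count that allows a share of up to 60%. Over all genes with H3K4me3 the share with MOF was 42.4%. With 1 kb on either side the contrast was smaller, since MOF was present at 4 of 7 posterior (57.1%, 18.4 to 90.1%), 3 of 13 central (23.1%, 5.04 to 53.8%) and 1 of 7 anterior genes with H3K4me3 (14.3%, 0.361 to 57.9%), against 44.0% of all such genes. Single paralogue groups hold too few genes to be told apart. All members of groups 5 and 6 had H3K4me3 (3 of 3 in each, against 60.6% of all genes). In the wider window H3K27Ac was present at 0 of 3 genes of group 5 (exact interval 0 to 70.8%) and at 3 of 3 of group 6 (29.2 to 100%), against 51.8% of all genes. In group 4, Hoxa4, Hoxb4 and Hoxc4 had both marks while Hoxd4 had no peak, its nearest H3K4me3 peak beginning 5232 bp downstream of its start.

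**Figure D2:**
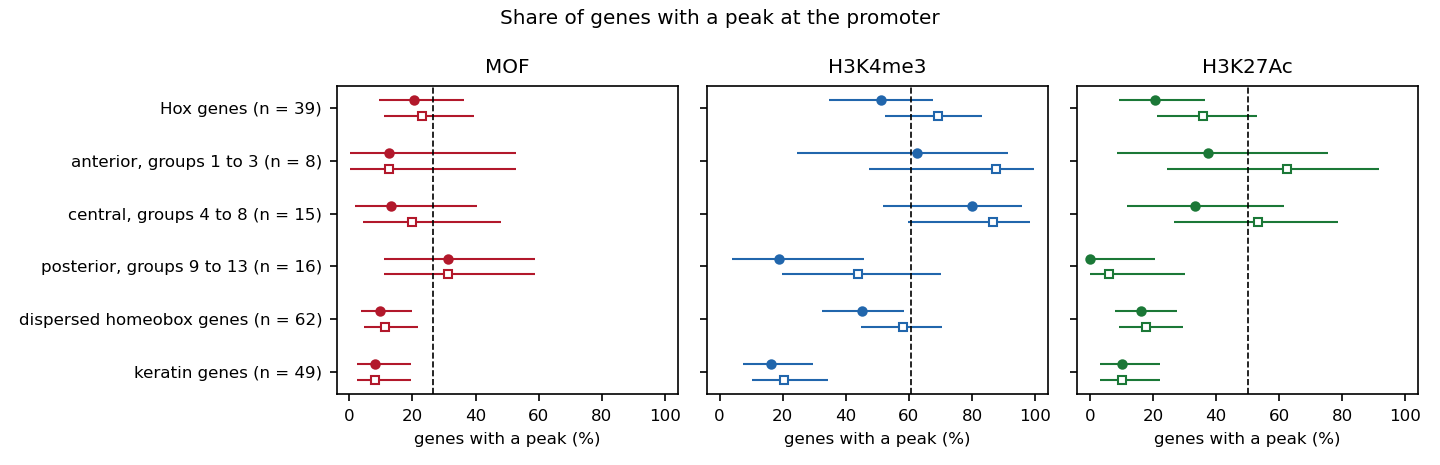
Share of genes with a peak at the promoter (%, horizontal) for the Hox genes, their 3 axial groups, the dispersed homeobox genes and the keratin genes, 1 panel per list. Filled circles use the promoter window, open squares 1 kb on either side of a TSS, bars are exact 95% confidence intervals, and the dashed line is the share of all protein-coding genes in the promoter window (26.6%, 60.6% and 50%). Posterior Hox genes have the lowest H3K4me3 and H3K27Ac shares of the axial groups.

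The Hoxa cluster on chromosome 6 spanned 105514 bp and is transcribed from the minus strand. Its H3K4me3 lay on the anterior side in the promoter window: Hoxa2 to Hoxa6 had a peak, and Hoxa7, Hoxa9, Hoxa10, Hoxa11 and Hoxa13 had none. The fold enrichment, which is the height that the authors' peak caller gave relative to its estimate of background, was 2.01 at Hoxa2 (a gene of the hindbrain and neural crest in the embryo), 2.13 at Hoxa5 and 1.79 at Hoxa6. Hoxa4 stood above these with 6.86, from 128 bp upstream of its start. H3K27Ac was present at Hoxa3 (2.35), Hoxa4 (3.40) and Hoxa6 (2.02). The medians of the whole lists were 6.63 for H3K4me3 and 4.91 for H3K27Ac, so that of these folds the H3K4me3 of Hoxa4 lay above its median and the others lay below.

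Hoxa5, which is needed for lung and trachea formation, had the single MOF peak at a Hoxa promoter. That peak was 2763 bp wide, wider than 99.4% of MOF peaks, while its score of 499 exceeded that of 35.8%. The score orders peaks within the MOF list and its scale was not stated. Another MOF peak (score 898) lay 999 bp downstream of the start of Hoxa4, inside the Hoxa3 and Hoxa4 transcripts. Hoxa9, Hoxa10 and Hoxa11 had no peak within 1 kb of a start. The start of Hoxa13, a gene of digit and genital development, had an H3K4me3 peak of 351 bp that began 299 bp downstream, with a fold enrichment of 6.77.

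The Hoxb cluster on chromosome 11 spanned 173938 bp, most of its posterior side being the gap between Hoxb13, a gene of the prostate and tail, and Hoxb9. H3K4me3 was present at Hoxb4 (2.48), Hoxb5 (1.93), Hoxb6 (2.14), Hoxb7 (2.62 for the higher of 2 peaks) and Hoxb9 (5.64). Hoxb9 had the highest fold enrichment among these promoters. MOF was present at Hoxb2 (score 1010), Hoxb4 (434) and Hoxb9 (706). Hoxb4, which promotes the self-renewal of blood stem cells when overexpressed, had H3K27Ac of 2.47 within the span of its MOF peak of 1182 bp. At Hoxb2, the MOF peak of 433 bp began 57 bp and the H3K4me3 peak of 2974 bp began 170 bp downstream of the start. Hoxb13 had its nearest H3K4me3 peak 56608 bp downstream and its nearest MOF peak 76883 bp downstream.

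The Hoxc cluster on chromosome 15 spanned 115722 bp. H3K4me3 was present at Hoxc4 (5.33), Hoxc5 (3.33), Hoxc6 (3.73), Hoxc8 (5.39) and Hoxc10 (6). Hoxc8, a gene of thoracic identity, carried the widest H3K27Ac peak of any Hox promoter, 2030 bp and wider than 99.6% of its list, with a fold enrichment of 4.96 and under an H3K4me3 peak of 2292 bp. MOF was present at the posterior genes Hoxc10 (score 780) and Hoxc13 (987). Hoxc13, a regulator of hair keratin genes whose loss leaves mice without hair, had a MOF peak of 1473 bp over its start, H3K27Ac (4.57) from 112 bp and H3K4me3 (6.29) from 313 bp downstream. Hoxc11 and Hoxc12 had no H3K4me3 within 11968 bp and 13198 bp of their starts.

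The Hoxd cluster on chromosome 2 spanned 96918 bp and had the fewest peaks. H3K4me3 was present at Hoxd1 (5.87), Hoxd3 (6.05), Hoxd8 (4.52) and Hoxd11 (6.32). Its 1 H3K27Ac peak, of 394 bp and 4.59-fold, lay at Hoxd3. Both MOF peaks were posterior: at Hoxd11 the peak (score 1181, the highest at a Hox promoter) ended 567 bp upstream of the start, and at Hoxd12 the peak (score 898) ended 790 bp upstream. Neither overlapped an H3K4me3 peak. Hoxd10, Hoxd12 and Hoxd13, which shape the limb skeleton, had no H3K4me3 within 6612 bp, 7085 bp and 13873 bp of their starts.

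**Figure D3:**
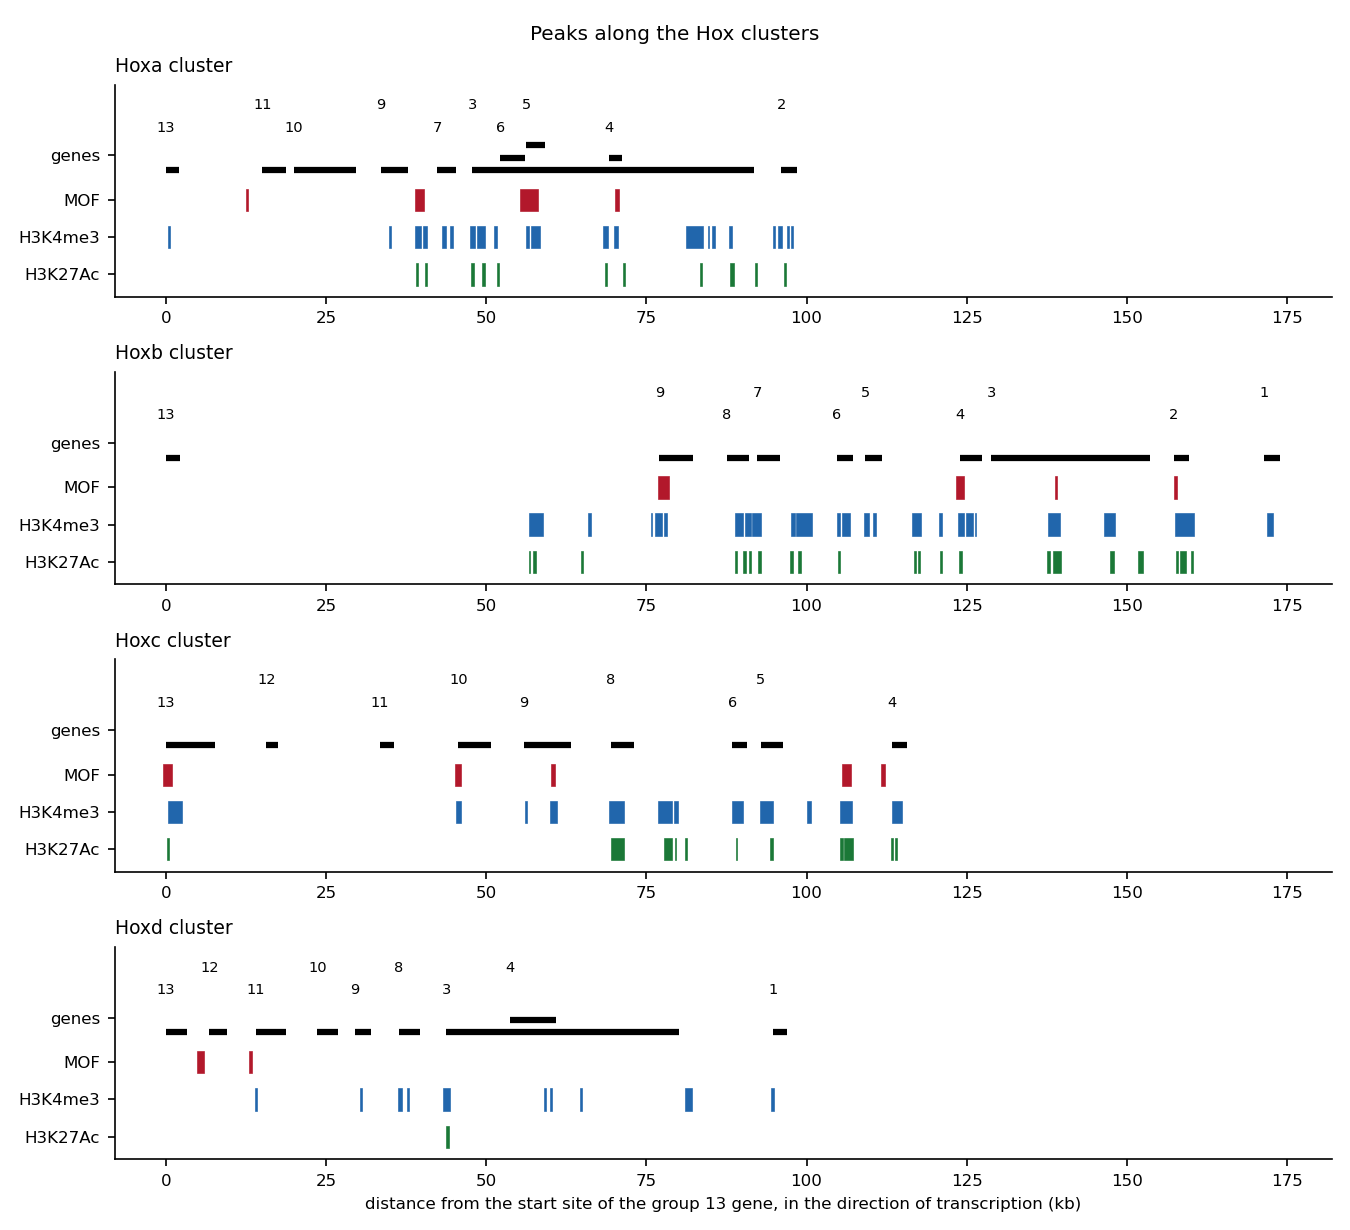
Peaks of MOF, H3K4me3 and H3K27Ac along the 4 clusters, plotted by distance (kb) from the start site of the group 13 gene in the direction of transcription, so that posterior genes are on the left. Black bars are Hox transcripts with the gene number above their start, coloured blocks are peaks, and outlines make the narrowest blocks slightly wider than scale. The anterior end of Hoxa, beyond the end of Hoxa2, is not drawn. From end to end, Hoxa, Hoxb and Hoxc hold 22, 23 and 12 H3K4me3 peaks, and Hoxd holds 10.

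From end to end, peaks covered more of the 4 clusters together than of the genome. H3K4me3 covered 13.2% of the 492092 bp of the 4 spans with 67 peaks, against 0.892% of the genome. H3K27Ac covered 4.57% with 46 peaks, against 0.712%, and MOF covered 3.001% with 15 peaks, against 0.489%. No Rfx2 peak lay in a span. H3K4me3 covered 15.8% of Hoxa, 14.8% of Hoxb, 14.9% of Hoxc and 5.42% of Hoxd. H3K27Ac covered 4.54%, 5.74%, 6.34% and 0.407% of them, so that Hoxd lay below the genome in this mark. Between Hoxb9 and Hoxb1, without the gap to Hoxb13, H3K4me3 covered 22.9%. In the 100 kb on each side of a cluster, H3K4me3 covered 0 to 4.54%, less than in the cluster itself in every case. The other lists did not all share this order, since MOF covered 2.93% of the flank beyond Hoxb1 against 1.99% of Hoxb, and H3K27Ac covered 1.06% and 0.883% of the Hoxd flanks, more than of Hoxd. Between Hoxb9 and Hoxb1 alone MOF covered 3.44%, more than that flank, so the order for MOF depended on the span taken.

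Many of these peaks lay outside the promoter window. Of the 67 H3K4me3 peaks, 21 were at a Hox promoter, 31 in a Hox transcript, 2 within 1 kb of the start of a noncoding RNA and 13 between genes. For H3K27Ac these counts were 8, 20, 3 and 15 of 46. For MOF they were 8, 3, 0 and 4 of 15. Over the whole lists, 12673 of 27039 H3K4me3, 10341 of 30736 H3K27Ac and 4985 of 17546 MOF peaks lay at a protein-coding promoter. Long annotated transcripts of Hoxa3, Hoxb3 and Hoxd3 contribute to the transcript class. So do peaks that began shortly past the window, which ends 100 bp after a start. Among these were H3K4me3 at Hoxb2 (170 bp downstream) and Hoxc9 (231 bp), and H3K27Ac at Hoxc13 (112 bp) and Hoxb7 (150 bp). H3K27Ac peaks overlapped H3K4me3 in 39 of 46 cases (84.8%, 71.1 to 93.7%), against 58.3% of all H3K27Ac peaks. MOF peaks overlapped H3K4me3 in 11 of 15 cases (73.3%, 44.9 to 92.2%), against 41.5% of all MOF peaks, and H3K27Ac in 6 of 15 (40%, 16.3 to 67.7%), against 38.6%. H3K4me3 peaks overlapped H3K27Ac in 31 of 67 cases (46.3%, 34.0 to 58.9%), against 64.5%.

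Around the 42 start sites of the Hox genes, H3K4me3 covered 40.5% at the start and reached 42.9% at 300 bp downstream. It then fell to 23.8% at 600 bp and returned to 40.5% at 1000 bp. Around the 26032 start sites of all protein-coding genes the cover was highest at 100 bp (52.5%) and was 25.2% at 1000 bp. At 2000 bp downstream 16.7% of Hox start sites were under an H3K4me3 peak, against 3.85% of all start sites. At the 73 start sites of the 62 dispersed homeobox genes the value at 2000 bp was 15.1%. H3K27Ac was highest at 200 bp for Hox genes (19.05%) and at 100 bp for all genes (42.6%).

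**Figure D4:**
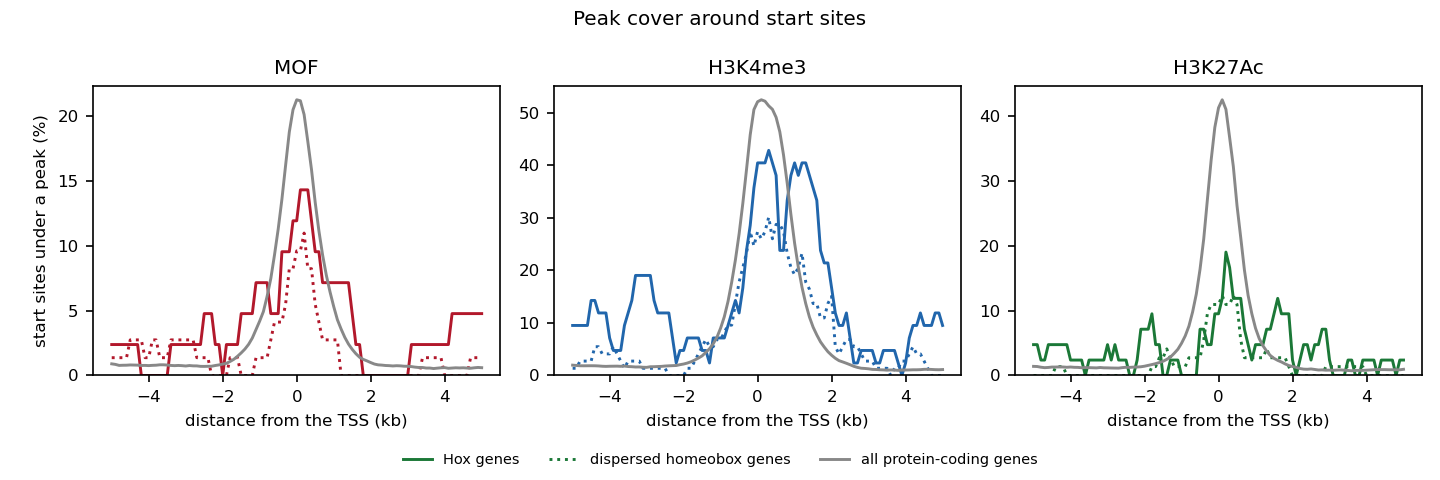
Share of start sites under a peak (%, vertical, with a scale of its own in each panel) by distance from the TSS (kb, positive downstream), for Hox genes (42 start sites, solid coloured lines), dispersed homeobox genes (73, dotted) and all protein-coding genes (26032, grey). The H3K4me3 line of the Hox genes has maxima on both sides of a dip to 23.8% at 600 bp and lies above the grey line at 2000 bp.

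The peaks at Hox promoters were low in fold enrichment. The median was 3.33 over 21 H3K4me3 peaks at Hox promoters (1.79 to 6.86) and 7.91 over all 12673 promoter peaks. It was 3.19 over 8 H3K27Ac peaks (2.02 to 4.96) and 6.50 over all 10341. MOF went the other way, with a median score of 839 over 8 peaks (434 to 1181) and 651 over all 4985. When only the 50% of peaks with the highest significance were kept, H3K4me3 remained at 5 Hox promoters (12.8%) and at 51.3% of all promoters, and H3K27Ac at 2 (5.13%) and 42.0%.

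Fold enrichment moved with the amount of peak nearby. Over all H3K4me3 peaks the median fold enrichment was 7.63 where no other H3K4me3 peak lay in the surrounding 10 kb and 2.57 where other peaks covered over 20% of it. The Hox peaks in these classes had medians of 5.82 (18 peaks) and 2.09 (16 peaks). The median fold enrichment was 2.07 in Hoxa, 2.62 in Hoxb, 4.89 in Hoxc and 5.91 in Hoxd, and the median share of the surrounding 10 kb under other peaks was 15.5%, 15.9%, 1.88% and 1.65%. Hoxa and Hoxb had more nearby peaks and lower folds than Hoxc and Hoxd, and the part of nearby peaks in the folds was not tested.

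**Figure D5:**
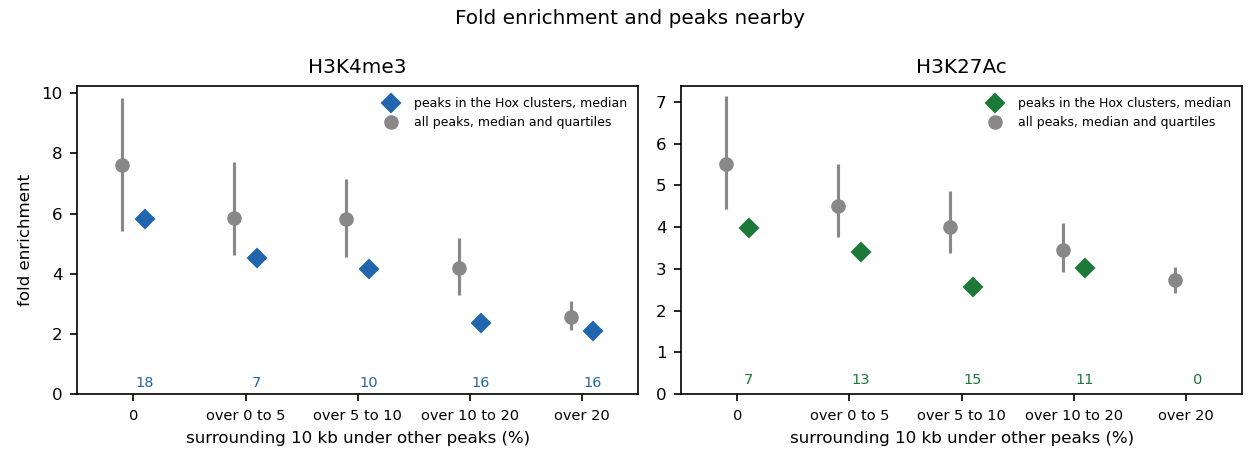
Fold enrichment (vertical) by the share of the surrounding 10 kb that other peaks of the same list cover (%, horizontal), for H3K4me3 and H3K27Ac. Grey circles are medians of all peaks with their quartiles, coloured diamonds medians of the peaks in the Hox clusters, whose number stands at the bottom. For both marks the grey medians fall from left to right, and each diamond lies below the circle of its class (no H3K27Ac peak of the Hox clusters is in the last class).

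Noncoding RNA genes lie between the Hox genes. Of 19 long noncoding RNAs in the spans, 12 had H3K4me3 at the promoter (63.2%, 38.4 to 83.7%), against 31.2% of the 3318 long noncoding RNA genes of the annotation. H3K27Ac was present at 6 (31.6%, 12.6 to 56.6%), against 24.7%, and MOF at 1 (5.26%, 0.133 to 26.0%), against 13.4%. None had Rfx2, against 0.542%. Several of these peaks were also peaks of Hox genes. The H3K4me3 peak of Haglr was that of Hoxd1, and the H3K4me3 peak of Hoxaas2 was that of Hoxa2. Gm38462 had the H3K4me3 and H3K27Ac peaks of Hoxd3. Hoxb3os had the H3K4me3 peak that began downstream of the start of Hoxb2. These shares are therefore not separate from those of the Hox genes. Gm53, between Hoxb13 and Hoxb9, had an H3K4me3 peak of 2283 bp (5.47) and an H3K27Ac peak of 6.003, the highest H3K27Ac fold enrichment in the clusters. Gm36878, inside Hoxc9, had the MOF peak (score 375) and an H3K4me3 peak of 8.99, the highest in the clusters. Hotair, which lies between Hoxc12 and Hoxc11 and has been studied for its binding of Polycomb proteins, had no peak of any list.

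The clusters also hold 6 microRNA genes, and their mature sequences are shown to group them by seed. The miR-10 and miR-196 families are known to target Hox transcripts. The RefSeq table matched all 6, and the seed (bases 2 to 8) is in capitals.
miR-10a-5p: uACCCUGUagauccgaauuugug
miR-10b-5p: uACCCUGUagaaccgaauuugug
miR-196a-5p: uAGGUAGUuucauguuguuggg
miR-196b-5p: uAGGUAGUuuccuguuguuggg
miR-615-3p: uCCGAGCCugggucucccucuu
The seed was the same in miR-10a-5p and miR-10b-5p, and it was the same in miR-196a-5p, which both Mir196a-1 and Mir196a-2 encode, and miR-196b-5p. Mir615, inside Hoxc5, was the 1 microRNA gene with a peak in the promoter window, the H3K4me3 peak of Hoxc5 (3.33). The hairpin starts are not the starts of the primary transcripts. Mir10a, upstream of Hoxb4, had the nearest MOF peak 544 bp and the nearest H3K4me3 peak 776 bp downstream of its start. Mir10b, Mir196a-1, Mir196a-2 and Mir196b had no H3K4me3 within 1140 bp, 4545 bp, 3913 bp and 4107 bp.

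The base composition of the Hox promoters (1101 bp, at the first start of each gene) was set beside that of 20995 protein-coding genes. The ratio of observed to expected CG dinucleotides had a median of 0.501 at Hox genes (0.177 to 0.841) and 0.442 at all genes. Over all genes the median was 0.588 with H3K4me3 and 0.183 without. Over Hox genes it was 0.505 with H3K4me3 and 0.457 without, and genes unmarked in this window reached 0.789 at Hoxd13 and 0.683 at Hoxa13. Hoxa13 had H3K4me3 from 299 bp downstream of its start, outside this window. On either strand, TATAAA was found at 43.6% of Hox promoters and 45.9% of all promoters, TGATTNAT (a site of Hox and Pbx pairs) at 10.3% and 12.2%, TTTATGG (a posterior Hox site) at 7.69% and 11.9%, and GTTGCC (part of the X-box that Rfx proteins bind) at 30.8% and 32.2%. The shares at Hox promoters were close to those at all promoters for TATAAA and GTTGCC.

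Genes around the pathway were counted in the same promoter window, in which 26.6% of all genes had MOF, 60.6% had H3K4me3 and 50% had H3K27Ac. Of 9 cofactor genes of the Pbx, Meis and Pknox families, whose proteins bind DNA with Hox proteins, 9 had H3K4me3, 5 had H3K27Ac and 3, among them Pbx3 and Pknox1, had MOF. Of 30 Polycomb genes, 30 had H3K4me3, 27 had H3K27Ac, 12 had MOF and 2 (Pcgf1 and Cbx8) had Rfx2. That Rfx2 share was 6.67% (0.818 to 22.1%), and its interval held the 1.41% of all genes. Of 11 trithorax group and H3K27 demethylase genes, 10 had both marks and 9 had MOF, among them Kmt2a, which methylates H3K4 at Hox genes. Kdm6b had no peak. Of 9 upstream regulators, which include the Cdx factors and retinoic acid receptors, 4 had H3K4me3, 2 had H3K27Ac and 1 (Rarg) had MOF. Of 10 related homeobox genes 3 had H3K4me3 (Gsx1, Gbx2 and Mnx1) and none had MOF or H3K27Ac. The intervals lay above those of the Hox genes for H3K4me3 at Polycomb genes, for H3K27Ac at Polycomb and trithorax genes and for MOF at trithorax genes, and the others overlapped.

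Compared with other developmental genes, MOF was present at 6 of 62 dispersed homeobox genes (9.68%, 3.63 to 19.9%), H3K4me3 at 28 (45.2%, 32.5 to 58.3%) and H3K27Ac at 10 (16.1%, 8.02 to 27.7%). All 3 intervals overlapped those of the Hox genes. The keratin genes, which also lie in clusters, had H3K4me3 at 8 of 49 promoters (16.3%, 7.32 to 29.7%), below the interval of the Hox genes. They had MOF at 4 and H3K27Ac at 5. Of the 16 genes next to the Hox clusters, 2 on each side, 11 had H3K4me3 with fold enrichments of 4.62 to 14.3, 10 had H3K27Ac and 6 had MOF, where 60.6%, 50% and 26.6% of all genes had them. Evx1 and Evx2, the homeobox genes that adjoin the posterior ends of Hoxa and Hoxd, had no peak.

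The tissue was checked against marker genes, beside the 60.6% of all genes with H3K4me3. H3K4me3 was present at 6 of 10 keratinocyte genes (60%, 26.2 to 87.8%), a share that does not set them apart from all genes. Krt14 carried MOF and both marks, and Itgb4, Sfn and Perp carried both marks without MOF. Krt5 and Trp63 carried H3K4me3 alone and Itga6 carried H3K27Ac alone. Krt1, Krt10 and Ivl, genes of differentiated layers, carried no peak. H3K4me3 was also present at 3 of 7 dermal fibroblast genes (Col1a2, Pdgfra and Dcn), of which Col1a2 and Pdgfra carried MOF, at 2 of 4 melanocyte genes, 1 of 3 endothelial, 1 of 2 Merkel cell and 0 of 3 immune genes, lists too short to be set against all genes. Col1a1, Col3a1, Lum and Twist2 carried no peak. H3K27Ac was present at 5 of 10 keratinocyte, 1 of 7 dermal fibroblast and 1 of 4 melanocyte genes, against 50% of all genes. It was present at 0 of 3 immune, 0 of 3 endothelial and 0 of 2 Merkel cell genes. The part of fibroblasts or other cells in the Hox peaks was not tested.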

How the data were processed

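Peak lists of 1 library each were used for MOF (ChIPseq) and for Rfx2, H3K4me3 and H3K27Ac (Cut&Run). H4K16Ac, H3K4me1 and the other H3K4me3 and H3K27Ac libraries were not analysed here, and which of the H3K4me3 libraries gave the list is not certain. The authors aligned reads to mm10 with Bowtie2 in very sensitive local mode and called peaks per sample with MACS2, MOF from single-end reads without a fragment model and the others from whole paired-end fragments. Tool versions and read totals per library stand in the study's methods and are not repeated here. Control libraries are not given in the sources used here. The deposited MOF list holds a score of unstated scale and 17546 peaks, more than the study states that it called for MOF, so every MOF count here rests on a longer list than that call. The other deposited lists hold the fold enrichment and the −log10 q-value, the lowest of which was 1.32, 1.35 and 1.32 for Rfx2, H3K4me3 and H3K27Ac. No list gives reads per peak, and the libraries differed in depth, so heights were not compared between lists.

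Start sites were those of curated RefSeq transcripts of GRCm38.p6, the assembly of mm10, and no peak lay beyond a chromosome end. Percentile ranks of height and width are within a list. A cluster span runs from the lowest to the highest base of its Hox transcripts. Intervals are exact (Clopper-Pearson, 95%). A count of 0 was given the limit of 3 counts, except for 0 of 3 genes of group 5, where the exact interval is given. Overlaps were computed in Python (3.11.15) and differed from bedtools (2.31.1) at 0 of 5000 simulated regions. The members, gene lists and alternatives were chosen with earlier results of these data known. Named are all Hox genes, noncoding RNAs in the spans, the 2 genes on each side, the widest and highest peaks, and genes of the lists. The window of 1 kb on either side was among the alternatives. Some genes counted in the sets are not reported here by name. Other items singled out were chosen after their values were seen.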

Additional observations from a re-analysis of the deposited data

How the results depend on the processing

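No paired analysis was possible because there was 1 peak list per antibody, so no library could be left out either. Of 47 values under other settings, 30 stayed within 1.5 times the reported value and 17 did not. Gene counts were compared as counts, also for MOF among genes with H3K4me3, whose number changed with the setting. The Rfx2 values, all 0, were counted as within. Requiring the peak centre in the window gave 3 Hox genes with MOF (7.69%, against 16.4% of all genes), 11 with H3K4me3 (28.2%, against 27.3%) and MOF at 2 of these 11 (18.2%, against 34.4%). Requiring an overlap of 50% of the shorter gave 5 (12.8%, against 18.5%), 12 (30.8%, against 37.5%) and 2 of 12 (16.7%, against 37.9%). The shares over all genes fell too. Windows of 500 bp, 1 kb and 2.5 kb on either side gave 13, 14 and 18 genes with H3K27Ac (33.3%, 35.9% and 46.2%, against 50.7%, 51.8% and 53.5%), and the last 2 gave MOF at 8 of 27 and 10 of 30 genes with H3K4me3 (29.6% and 33.3%, against 44.0% and 45.5%). The 50% of peaks with the highest score or significance gave 5 genes with H3K4me3 (12.8%, against 51.3%), 2 with H3K27Ac (5.13%, against 42.0%) and MOF at 0 of the 5 with H3K4me3 (against 30.0%). They covered 1.63% (MOF), 5.39% (H3K4me3) and 2.34% (H3K27Ac) of the spans. Fewer peaks enter that setting by its construction, and a window or centre rule changes which peaks count. Rfx2 stayed at 0 under every setting run. Predicted transcripts gave 8, 22 and 12 genes with MOF, H3K4me3 and H3K27Ac (20.5%, 56.4% and 30.8%, against 27.8%, 61.9% and 51.4%). The libraries differed in depth and no list gives reads per peak, so a missing peak does not show that a mark is absent.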
